A study of Drosophila melanogaster with 3 samples.

Results

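The regions described here are 206 places in the fruit fly genome where GFP-tagged Grauzone gave a strong chromatin immunoprecipitation peak in replicates 1 and 2 of whole embryos and where replicate 3 had no listed peak nearby. They were chosen by the measured signal. Each was among the 9000 peaks with the highest deposited signal in replicate 1, had its point source (the most enriched base of a peak) within 100 bp of that of a replicate 2 peak of the same rank range, and lay farther than 500 bp from all 30000 peaks of replicate 3. They make up 206 of those 9000 replicate 1 peaks (2.29%), or of 30000 in the whole replicate 1 list. That share, the signals and the distances between lists follow from the choice and are given as description. Below, the 206 regions are called peaks of replicates 1 and 2 only, and they are set beside the 6666 replicate 1 peaks of the same rank range that had a peak of both other replicates within 100 bp, called peaks in all 3 lists.

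The embryos came from 1 transgenic line that carried grau with GFP fused to the C-terminal end of its protein, aged 0 to 24 hours, with males and females pooled, and the precipitation used an antibody to GFP. There was 1 group with 3 biological replicates, no untagged or wild type group was analysed here, and the 3 peak lists were derived from the same control alignment, per the file descriptions. Whole embryos mix all cell types and stages of the first day, so a strong peak in few cells and a weak peak in many cells cannot be told apart. The lists held 30000 peaks each. The median deposited signal was 51.3, 38.7 and 39.0 in replicates 1, 2 and 3, and the signal at rank 9000 was 93.6, 69.7 and 80.3. The read depth behind a list is unknown here, and a place without a listed replicate 3 peak may still have carried replicate 3 reads. With 3 samples in 1 group no test between samples was possible (the smallest p that an exact test of 1 replicate against the other 2 allows is 0.333), and peaks of 1 list are not replicates, so shares are given with 95% Wilson intervals that cover counting error only.

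Grauzone is a zinc finger protein with a zinc-finger-associated domain (ZAD), known as the activator of cortex (cort), whose product directs the anaphase-promoting complex during female meiosis. Transcription of a protein-coding gene begins at the core promoter, the stretch around the start where the general factors and RNA polymerase II assemble. Many fly genes that are active in most cell types have core promoters with short sequence words in place of a TATA box. Known ones are the DNA replication-related element (DRE, TATCGATA), the shorter CGATA contained in it and bound by the boundary protein BEAF-32, and the motif 1 word GGTCACAC, bound by the factor M1BP.

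Most peaks of replicates 1 and 2 only sat at core promoters, and 10 of their sequences are shown to make the position and the words visible. Each is the window that reaches 50 bp to each side of the replicate 1 point source, 5′ to 3′ on the plus strand of dm6 (the RefSeq copy of this assembly), in lower case with the searched words in capitals, on either strand. The first is the window at cort. The next 6 were picked after their values were seen, as the highest ranked ones on 2L, 3L, 3R, 4 and X within 100 bp of a start that hold the 7-base word ATCGATA or the motif 1 word. The last 3 are among those with the highest signal.
cort, chr2L:6676605-6676705: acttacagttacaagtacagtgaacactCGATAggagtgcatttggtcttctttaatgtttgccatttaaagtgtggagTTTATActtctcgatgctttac
mtsh and strat, chr2L:8320268-8320368: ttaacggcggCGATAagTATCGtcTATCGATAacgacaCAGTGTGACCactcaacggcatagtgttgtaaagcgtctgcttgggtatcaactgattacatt
CG2519, chr3R:5547820-5547920: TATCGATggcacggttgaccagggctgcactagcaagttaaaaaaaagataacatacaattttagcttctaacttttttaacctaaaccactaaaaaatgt
CG31344 and Caf1-55, chr3R:15225438-15225538: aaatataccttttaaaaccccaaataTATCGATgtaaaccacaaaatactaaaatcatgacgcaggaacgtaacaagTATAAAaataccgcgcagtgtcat
ATPsynO, chr3R:15265513-15265613: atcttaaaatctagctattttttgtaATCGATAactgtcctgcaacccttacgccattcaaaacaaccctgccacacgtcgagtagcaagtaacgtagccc
CG17660 and mRpL48, chr2L:1710419-1710519: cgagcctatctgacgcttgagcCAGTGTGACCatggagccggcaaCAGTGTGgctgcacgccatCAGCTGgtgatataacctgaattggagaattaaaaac
Pak3, chr3R:16453789-16453889: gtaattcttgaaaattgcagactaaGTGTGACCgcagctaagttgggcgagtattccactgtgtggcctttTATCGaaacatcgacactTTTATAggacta
Taf4, chr3L:16113603-16113703: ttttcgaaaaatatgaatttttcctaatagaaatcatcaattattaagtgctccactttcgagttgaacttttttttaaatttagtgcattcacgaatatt
CG9992, chrX:16384079-16384179: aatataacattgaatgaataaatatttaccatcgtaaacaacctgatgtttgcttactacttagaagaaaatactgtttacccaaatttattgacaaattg
Adh and Adhr, chr2L:14616086-14616186: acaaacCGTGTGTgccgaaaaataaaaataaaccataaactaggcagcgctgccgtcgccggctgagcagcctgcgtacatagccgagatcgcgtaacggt
At cort the capitals mark CGATA and a TATA word (TATAAA) read on the opposite strand. At mtsh and strat, which start on opposite strands within 500 bp of the point source, they mark CGATA, the DRE and, at CAGTGTGACC, the motif 1 word overlapped by the searched word CACACTG, both read on the opposite strand. The windows of CG2519, Caf1-55 (a histone-binding protein of chromatin complexes) and ATPsynO (a subunit of the mitochondrial ATP synthase) hold ATCGATA, and that of Caf1-55 also holds TATAAA. The windows of mRpL48 (a protein of the mitochondrial ribosome) and Pak3 (a protein kinase) hold the motif 1 word, Pak3 also CGATA and TATAAA, and mRpL48 also CACACTG and the E-box word CAGCTG. At Taf4, a subunit of the general factor TFIID, and at CG9992 none of the searched words occurred. The window at Adh and Adhr holds only ACACACG, read on the opposite strand. These 3 windows lie 131 to 137 bp from the nearest start, whereas the other 7 lie 7 to 95 bp from it. The windows at gw, Ufd4, Wdr81, CG12170 and pav, also among those with high signal, are not printed. None of them, and none of the 3 printed for their signal, holds CGATA, the DRE or the motif 1 word. All of these lie more than 100 bp from the nearest start. The 6 windows picked for their words therefore do not stand for the regions of highest signal.

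Within replicate 1 the 206 peaks had signals of 94.0 to 429 (median 139) and ranks of 1595 to 8956 (median 6027). In replicate 2 they had signals of 70.0 to 359 (quartiles 82.5 and 128) and ranks of 1387 to 8972 (median 6194). They therefore belonged to the middle and lower part of the 9000 in both lists, and 91 of them ranked higher in replicate 2 than in replicate 1. The peaks in all 3 lists had a median rank of 3506 in replicate 1. All 206 carried the highest −log10 q-value of their lists, 4.45 in replicate 1 and 4.38 in replicate 2, so q did not separate them from stronger peaks. Point sources of the 2 replicates lay a median of 26.5 bp apart, and 87 of the 206 lay within 20 bp of each other.

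The nearest replicate 3 peak lay a median of 2697 bp away, from 525 bp to 86138 bp. For 44 regions it lay within 1000 bp, for 103 between 1000 and 5000 bp, and for 59 farther than 5000 bp. Just inside this limit were a region 525 bp from a replicate 3 peak and the one at RpS6, 536 bp from it, and just outside were those at kay (482 bp) and Gli (470 bp). At the rank limit, the regions at CG17839 (replicate 1 rank 8956) and CG33108 (rank 9084) were the nearest inside and outside. At the limit of 100 bp to replicate 2, the one at Dredd and su(sable) lay exactly 100 bp from its replicate 2 peak, and the one at PAN3, left out, lay 103 bp from it. The same rule with the replicates' roles changed kept 51 peaks of replicates 1 and 3 without replicate 2, and 171 of replicates 2 and 3 without replicate 1. These too were of middle and lower rank, with medians of 5457 in replicate 1 and 5571 in replicate 2.

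**Figure D1:**
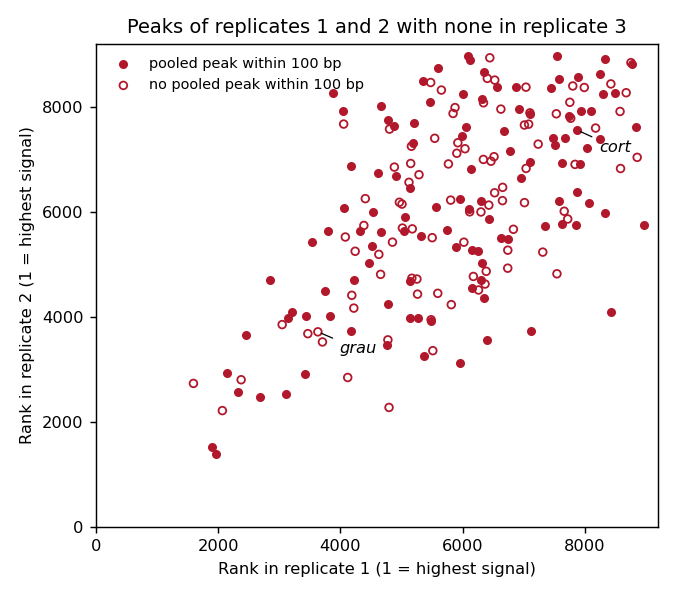
Rank of each of the 206 regions in replicate 1 (horizontal axis) and in replicate 2 (vertical axis), where rank 1 is the highest deposited signal. Filled points had a peak of the pooled list within 100 bp (112 regions) and open points had none (94); the 2 kinds lie over the same ranks, and only 10 regions are among the first 3000 of replicate 1.

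The 206 regions lay at promoters far more often than other strong peaks. Of them, 167 (81.1%, interval 75.2 to 85.8) had their point source within 500 bp of an annotated transcription start, against 2945 of 6666 peaks in all 3 lists (44.2%, interval 43.0 to 45.4) and 47.3% of all 9000 replicate 1 peaks. Placing the regions by their replicate 2 point sources gave 166 of 206, so the mean over replicates 1 and 2 was 80.8% ± 0.343 (SD, n = 2). The peaks in all 3 lists gave 43.6% ± 0.984 when placed by each replicate in turn (SD, n = 3). Both SDs come from places matched within 100 bp by the rule. They reflect mainly small shifts of the point source and do not measure a spread between replicates. The difference was present at like ranks. Within the middle 3000 ranks the share was 79.3% (73 of 92) for the regions and 43.3% for peaks in all 3 lists, and within the lowest 3000 it was 83.7% (87 of 104) and 40.9%. Among the first 3000 ranks there were only 10 regions, of which 7 were at promoters. By chromosome arm the promoter share lay between 79.3% on X and 85.3% on 2L.

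Changing which replicate lacked the peak changed this share. Of the peaks of replicates 1 and 3 without replicate 2, 24 of 51 lay at promoters (47.1%, interval 34.1 to 60.5), and of those of replicates 2 and 3 without replicate 1, 64 of 171 (37.4%, interval 30.5 to 44.9). Both shares lay far below the 81.1% of the regions that lacked a replicate 3 peak. The replicate 3 list also had fewer peaks at core promoters as a whole. Among its 9000 strongest peaks 13.2% had the point source within 100 bp of a start, against 20.9% in replicate 1 and 20.4% in replicate 2, and over all 30000 peaks these shares were 10.1%, 14.2% and 14.4%. What part this difference of the whole list has in the 206 regions was not tested.

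**Figure D2:**
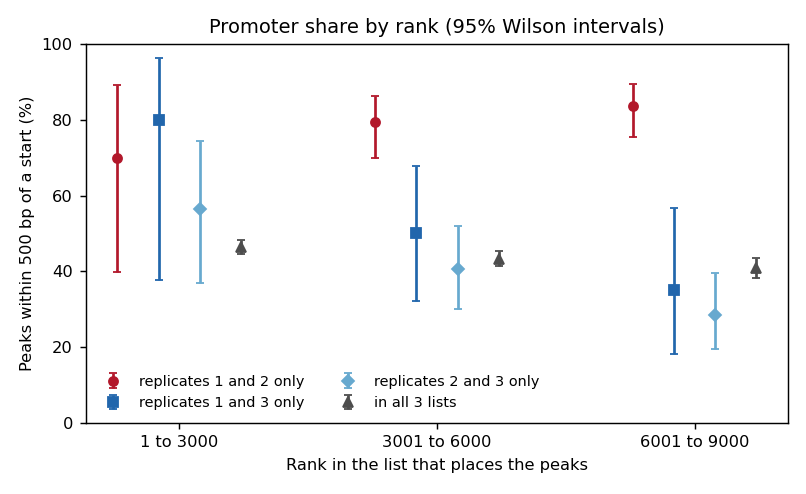
Percentage of peaks whose point source lay within 500 bp of a transcription start (vertical axis), by rank in the list that places the peaks (horizontal axis), with 95% Wilson intervals. Regions of replicates 1 and 2 only sit at 79.3% and 83.7% in the middle and lower rank bins, where the peaks in all 3 lists sit at 43.3% and 40.9%; the intervals of the smaller sets are wide among the first 3000 ranks.

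At promoters the regions sat closer to the start itself. In all, 126 of the 206 (61.2%, interval 54.4 to 67.6) lay within 100 bp of a start, against 1123 of 6666 peaks in all 3 lists (16.8%, interval 16 to 17.8). Counting promoter peaks only, this was 126 of 167 (75.4%, interval 68.4 to 81.4) against 38.1% (interval 36.4 to 39.9). The difference was taken up by the stretch more than 100 bp upstream, which held 19.2% of the regions at promoters and 53.2% of the promoter peaks in all 3 lists. The median position was 28.0 bp upstream of the start for the regions and 108 bp upstream for peaks in all 3 lists. A start of a gene on each strand lay within 500 bp in 56 of 167 regions (33.5%) and in 34.3% of promoter peaks in all 3 lists. Starts on both strands were thus about equally common in both sets, with intervals of 26.8 to 41.0% and 32.6 to 36.0%. Whether such starts pointed away from each other was not checked.

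**Figure D3:**
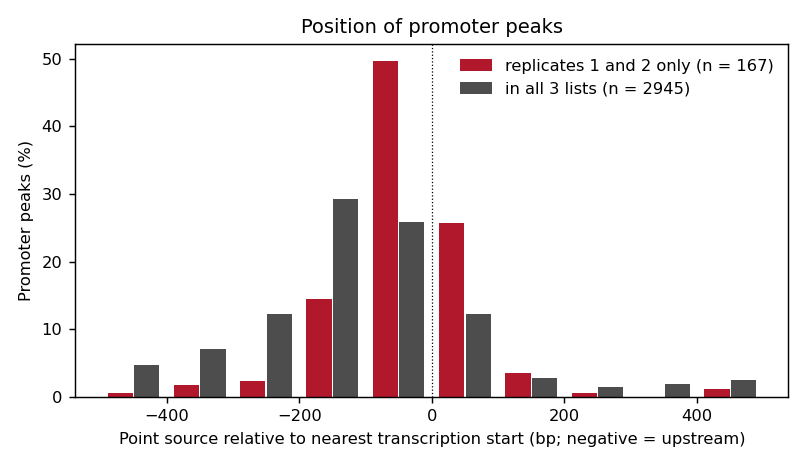
Position of the point source relative to the nearest transcription start (horizontal axis, bp, in bins of 100 bp, negative is upstream) for the 167 promoter regions of replicates 1 and 2 only and the 2945 promoter peaks in all 3 lists, as a percentage of each set. The bin just upstream of the start holds 49.7% of the regions and 25.9% of the peaks in all 3 lists, whereas the bin from 200 to 100 bp upstream holds 14.4% and 29.3%.

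The distance to replicate 3, which the choice of regions used, is given here with the position as a description only. Of the 59 regions farther than 5000 bp from any replicate 3 peak, 55 lay at promoters (93.2%, interval 83.8 to 97.3), and 69.5% lay within 100 bp of a start. Of the 44 regions with a replicate 3 peak within 1000 bp, 28 lay at promoters (63.6%, interval 48.9 to 76.2), and 31.8% lay within 100 bp of a start. The 103 regions in between had 81.6% and 68.9%, so beyond 1000 bp the share within 100 bp of a start was flat.

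The 39 regions away from promoters were mostly in introns. Introns held 31 of them, or 15% of all 206, against 38.5% of peaks in all 3 lists. Only 3 were intergenic (1.46%, against 14.6%), 2 lay in a 3′ UTR (at CG11357 and CG17746), 2 in a 5′ UTR (of dop, a kinase gene, and of Ssdp) and 1 in a coding exon whose nearest start is that of InR, the insulin receptor. In 1 case an annotated transposable element lay under the point source, which is 0.485% of the regions and compares with 0.180% of peaks in all 3 lists. The region with the highest replicate 1 signal was intronic. It lay in mbc (myoblast city, an activator of the GTPase Rac needed for muscle cell fusion) at chr3R:23791767-23792113, 10169 bp from the nearest start, with a signal of 429 in replicate 1 (rank 1595) and 212 in replicate 2 (rank 2732). Its nearest replicate 3 peak lay 897 bp away and was itself strong, at rank 1388. The next highest lay in introns of trc (a kinase that shapes cell outgrowths, 314 in replicate 1 and 222 in replicate 2), Graf (299.6 and 164), Hrb27C (an RNA-binding protein, 228 and 199) and psq (a BTB-domain transcription factor, 212 and 136). For these 4 the nearest replicate 3 peak lay between 614 bp and 1992 bp away, at ranks between 3898 and 25325.

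The 15 strongest promoter regions lay farther out than the rest, 6 to 457 bp from the nearest start with a median of 117 bp, and only 5 of them were within 100 bp of it. At Taf4 (chr3L:16113487-16113802, in an intron of the gene and 137 bp upstream of a start) the signal was 370.5 in replicate 1 (rank 1895) and 335 in replicate 2 (rank 1520). At CG9992 (chrX:16383962-16384279, also intronic) it was 360.1 and 359, at ranks 1961 and 1387. Both stood as high in replicate 2 as in replicate 1 or higher by rank, and their nearest replicate 3 peaks, 743 bp and 943 bp away, had ranks of 24980 and 1492. At gw, which encodes the GW182 protein of microRNA silencing, the signal was 346 in replicate 1 and 249 in replicate 2. At the shared promoter of CalpA (a calpain protease) and hts (adducin, a protein of the membrane skeleton) it was 336 and 198, and at Ufd4, a ubiquitin ligase, 309 and 207. Ufd4 had no replicate 3 peak within 6071 bp. At shot, a giant linker of actin and microtubules, the values were 281 and 228. At Adh (alcohol dehydrogenase) and its neighbour Adhr they were 268 and 129.8.

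Lower in this group, pav (the kinesin of cytokinesis) had 242 in replicate 1 and 148 in replicate 2, lola (a BTB zinc finger factor) 227 and 150.1, Pgm1 (phosphoglucomutase) 226 and 163, and glec (gliolectin) 223 and 114. The region at CG12170 and CG31548 had 245 and 151 and lay 11962 bp from any replicate 3 peak, the longest gap of the 15. Wdr81 had 247 and 224, with 1949 bp to the nearest replicate 3 peak. The remaining pair of the 15 lies at grau.

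Both ends of grau, the gene that encodes the tagged protein, carried a region (dm6, chr2R:21009764-21011921, minus strand). The region at its start, chr2R:21011857-21012017, had its point source 6 bp upstream of grau and near the start of CG9346, with a signal of 218 in replicate 1 (rank 3630) and 161 in replicate 2 (rank 3715). The region at its far end, chr2R:21009403-21009826, lay 39 bp upstream of the start of the neighbouring gene CG30291, with 251 in replicate 1 (rank 3046) and 156 in replicate 2 (rank 3853). Replicate 3 had no peak within 5629 bp of the first and 7941 bp of the second, and neither had a peak of the pooled list within 100 bp. The number of listed peaks nearby differed in the same direction. Within 10 kb of the grau start replicate 1 listed 12 peaks and replicate 2 listed 10, against 3 in replicate 3 and 4 in the pooled list. These counts include the 2 regions and many weak peaks. In replicates 1 and 2 they went down to ranks 27727 and 26019, with −log10 q-values of 0.643 and 0.711. All 3 replicate 3 peaks had a −log10 q-value of 4.35. The 3 of replicate 3 form a cluster 5635 to 6532 bp upstream of grau that all lists shared, with a signal of 586 at rank 1113 for its strongest peak in replicate 3, 458 at rank 1470 in replicate 1 and 359.6 at rank 1380 in replicate 2. The labels do not say where the tagged copy of grau was inserted or how much flanking sequence it carries, and reads from that copy and from the gene's own place cannot be told apart in these lists.

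At cort, the known target of Grauzone, the region was a weak one. It covered chr2L:6676443-6676866, with the point source 20 bp upstream of the cort start and within the annotated 3′ UTR of Nse1, the adjacent gene. The region had a signal of 107 in replicate 1 (rank 7870) and 83.6 in replicate 2 (rank 7560), where the point source lay 10 bp away. Replicate 3 listed its nearest peak 2895 bp away, inside the cort neighbourhood but past the other end of the gene, at rank 3871. The pooled list did have a peak at cort, at rank 7107 and 3 bp from the replicate 1 point source. In contrast to grau, replicates 1 and 2 and the pooled list had similar numbers of listed peaks within 10 kb of cort. They had 11, 10 and 10, against 6 in replicate 3, with weak peaks of low rank counted too.

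**Figure D4:**
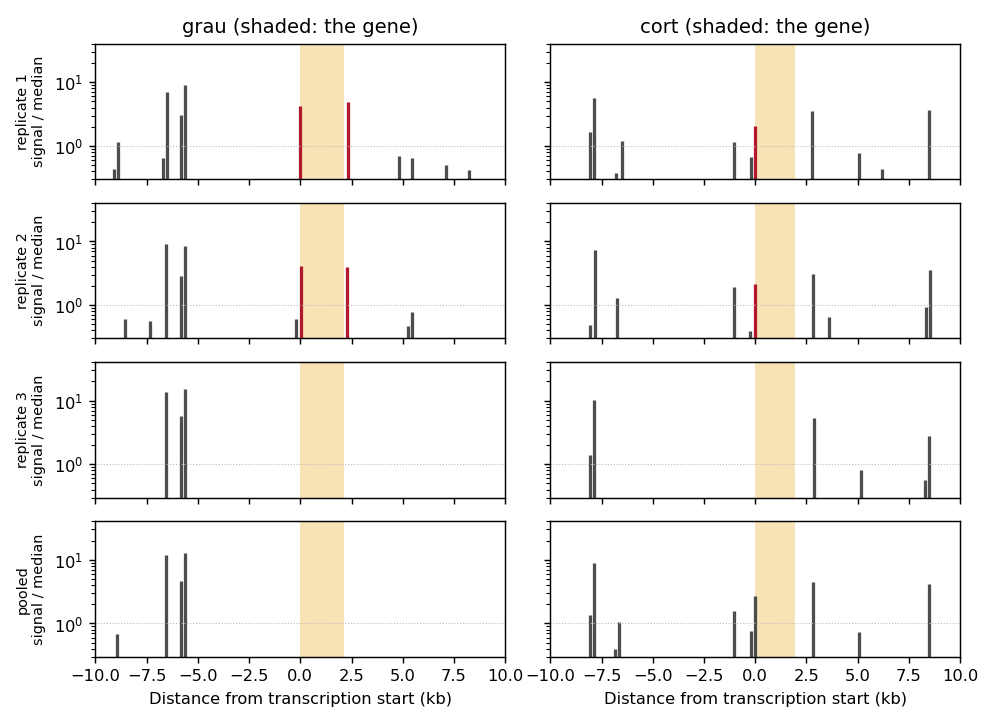
Peaks of replicates 1, 2 and 3 and of the pooled list within 10 kb of the starts of grau (left) and cort (right). Each line is a peak at its distance from the start in kb along the direction of transcription (horizontal axis), with a height equal to its signal divided by the list's median on a log axis; red lines are the regions of replicates 1 and 2 only, shading is the gene, and replicate 3 has no peak from the grau start to 10 kb beyond it.

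The pooled list, called on the combined reads, held only part of the regions. A pooled peak lay within 100 bp of 112 of the 206 (54.4%, interval 47.5 to 61.0), against 99.1% of peaks in all 3 lists and 93.8% of the 9000 replicate 1 peaks. The reproducible list, which is drawn from the pooled one, matched 49.0% of the regions (interval 42.3 to 55.8) and 98.6% of peaks in all 3 lists. A partial match was not particular to the regions. Peaks of replicates 2 and 3 without replicate 1 had 57.9% (interval 50.4 to 65.0) in the pooled and 57.3% in the reproducible list. Those of replicates 1 and 3 without replicate 2 had 68.6% (interval 55.0 to 79.7) and 66.7%. With ranks up to 15000 the reproducible share of the regions was 24.1%. With replicate 1 left out of the rule it was 32.6% (350 peaks), and with replicate 2 left out 31.6% (415 peaks). With replicate 3 left out, where all matches of replicates 1 and 2 are counted, it was 95.8%, and the pooled share was 97.0%. The pooled and reproducible lists come from the same reads, those of replicate 3 included, and are no independent check. The 94 regions without a pooled peak had a median replicate 1 rank of 5968, and the 112 with one had 6066, so both lay at like ranks. Those without one included mbc, gw, Ufd4, Pgm1 and both regions at grau. Promoters made up 78.7% of the regions without a pooled peak and 83.0% of those with one.

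The genes with a region at a start were few. Of 13945 protein-coding genes, 223 (1.60%) had a region within 500 bp of a start, and 3426 (24.6%) had a peak in all 3 lists there. Of the 223, 18 had both, a number held down by the rule, which keeps regions and shared peaks apart. Among gene lists the regions were spread thinly. Cytosolic ribosomal protein genes had 1 of 86 with a region (RpS6, a protein of the small subunit, 112 in replicate 1 and 70.0 in replicate 2), against 58 of 86 with a peak in all 3 lists. The start nearest to the region at RpS6 is that of snoRNA:Or-aca2, 19 bp away. Mitochondrial ribosomal protein genes, taken by symbols that begin with mRp and so perhaps not all of them, had 3 of 73 (mRpL48, mRpL53 and mRpS18C), against 35. Their regions lay 7, 3 and 64 bp from the nearest start, which was that of mRpL48, CG33155 and CG15535 in turn. The region of mRpL53 was shared with AGO1, the core protein of microRNA silencing, and replicate 2 ranked it 3563 and replicate 1 ranked it 6392.

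Proteasome subunit genes had 3 of 48 with a region (6.25%, interval 2.15 to 16.8), against 11 with a peak in all 3 lists. These were Rpt5, an ATPase of the cap, Rpn10, a ubiquitin receptor, and Prosalpha7, a subunit of the core ring. Rpt5 had 163 in replicate 1 and 105 in replicate 2, Rpn10 137 and 104, and Prosalpha7 159.7 and 129. The start nearest to the region at Rpt5 is that of RanBP3, 7 bp away. Heat shock genes had 1 of 26, Hsp68, with 181 and 104. A chosen list of genes of ZAD zinc finger proteins, the family of Grauzone, had 2 of 21 (9.52%, interval 2.65 to 28.9). They were grau and Sry-beta, against 11 of 21 with a peak in all 3 lists. The list need not hold the whole family, and 1 of the 2 is the gene of the tagged protein itself. The start nearest to the region at Sry-beta is that of Sry-alpha, 72 bp away. The meiosis and egg activation list had only cort, 1 of 33, against 10. Insulator protein genes had 0 of 20 with a region and 11 with a peak in all 3 lists. Chemoreceptor genes had 0 of 179 and 2, and replication-dependent histone genes had 0 of 111 in both sets. All these shares of regions stand beside 1.60% over all protein-coding genes, and the lists are too short to tell most of them from it.

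Genes of small noncoding RNAs had 2 regions in all, and these counts stand beside the 1.60% of protein-coding genes. No tRNA gene had a region within 500 bp (0 of 290, interval up to 1.31%), against 25 (8.62%) with a peak in all 3 lists, a set many times larger than the regions. With ranks up to 15000 the tRNA share was 8.28%. With replicate 1, 2 or 3 left out of the rule it was 2.41%, 1.38% and 9.66%. The 0 thus depends on the limits of the rule. Genes of snRNA had 0 of 32 and 6, miRNA genes 0 of 260 and 9, and snoRNA genes 2 of 269 and 18. The 2 snoRNA genes lie beside the starts of RpS6 and of a long noncoding RNA. Long noncoding RNA genes had 7 of 1944 (0.360%) and 172 (8.85%). Of the 206 regions, 164 lay within 500 bp of a protein-coding start, so all but 3 of the 167 promoter regions were at such genes.

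The small chromosome 4 and arm 2R held more of the regions than of the shared peaks, as they did for peaks of replicates 1 and 3 without replicate 2. Chromosome 4 had 5 of 206 (2.43%, interval 1.04 to 5.56), against 13 of 6666 (0.195%, interval 0.114 to 0.333). Peaks of replicates 1 and 3 without replicate 2 had 2 of 51 there (3.92%, interval 1.08 to 13.2), and those of replicates 2 and 3 without replicate 1 had 0 of 171. The 5 regions lay at gw, ey (the eye-forming Pax6 gene), CaMKII (a calcium-dependent kinase), at the start shared by Pur-alpha, Tdg and a long noncoding RNA, and in an intron of Mitf. The Mitf region was 86138 bp and the Pur-alpha region 55510 bp from any replicate 3 peak, whereas the other 3 lay within 749 bp of one. Arm 2R had 24.8% (interval 19.4 to 31.1) of the regions and 17.6% of peaks in all 3 lists, with 23.5% and 17.0% in the sets that lack replicate 2 and replicate 1. Chromosome X had 14.1% and 19.3%, with an interval for the regions of 9.98 to 19.5%.

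The regions were richer in G and C. This window of 50 bp to each side of the point source had a median GC content of 39.6% (quartiles 32.7 and 48.3), against 31.7% (quartiles 25.7 and 38.6) in peaks in all 3 lists. Flanking windows centred 500 bp away had 43.1% and 43.6%, so the point sources of regions and of shared peaks were both poorer in GC than their surroundings, the shared peaks by more. With ranks up to 5000 the median of the regions was lower, at 34.7% (n = 31), and with ranks up to 15000 it was 41.6% (n = 605). Within 100 bp of a start the medians were closer, at 42.6% for 126 regions and 39.6% for 1123 peaks in all 3 lists, and 58.7% (interval 50 to 66.9) against 49.8% (interval 46.9 to 52.7) had a GC content of 40% or more. Away from promoters they were 36.6% and 30.7%. Peaks of replicates 1 and 3 only and of replicates 2 and 3 only had medians of 30.7% each. The whole replicate 3 list differed in the same direction, since 17.5% of its 9000 strongest peaks had 40% GC or more, against 28.1% in replicate 1 and 28.7% in replicate 2. The part of this difference in the result was not tested. The commonest width of the replicate 1 list (424 bp, that of 77.0% of its peaks) was the width of 62.1% of regions and 18.6% of peaks in all 3 lists. The sets that lack replicate 2 and replicate 1 had 33.3% and 46.2% at the commonest width of the list that places them. No region was wider than 424 bp, whereas peaks in all 3 lists reached 2184 bp.

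The sequence words of core promoters were frequent at the regions, and the excess over shared peaks was smaller when both were taken at the same distance from a start. CGATA, on either strand, occurred in 63 of 206 windows (30.6%, interval 24.7 to 37.2), against 15% of peaks in all 3 lists and 14.1% of the regions' own flanks. Within 100 bp of a start it occurred in 52 of 126 regions (41.3%, interval 33.1 to 50) and in 33.7% (interval 31.0 to 36.6) of peaks in all 3 lists, against 25.3% of windows at all protein-coding starts. Away from promoters 2 of 39 regions held it. The DRE (TATCGATA, which contains CGATA) occurred in 7.28% of regions and 1.62% of peaks in all 3 lists, and within 100 bp of a start in 10.3% and 7.48%. The motif 1 word occurred in 5.34% and 1.14%, and within 100 bp of a start in 8.73% (interval 4.94 to 15) and 4.90%. At equal distance from a start the intervals of these 3 words in regions and shared peaks overlapped or touched. CGATA or motif 1 was present in 61 of the 126 core promoter regions (48.4%, interval 39.9 to 57.1), against 37.2% (interval 34.4 to 40.1) of the shared peaks there and 29.2% of protein-coding starts.

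A search over 234 words of 7 bases on 2L and 3L ranked ATCGATA, which overlaps the DRE and contains CGATA, first. It occurred in 12.7% of 71 regions there and 3.03% of peaks in all 3 lists, and on the other arms in 17.8% of 135 regions and 4.04%. Over all arms its share of 16% was 6.45% with ranks up to 5000 and 22.3% with a window of 100 bp to each side. It was 10.6% with replicate 1 left out of the rule and 4.02% with replicate 3 left out. In the sets that lack replicate 2 and replicate 1, ATCGATA had 3.92% and 2.92%. Within 100 bp of a start it was in 29 of 126 regions (23.0%, interval 16.5 to 31.1), 14.1% of peaks in all 3 lists (interval 12.2 to 16.2) and 10.1% of protein-coding starts. The shares over all arms include the regions on 2L and 3L from which the word was picked. They are therefore no check on it. The next words, CACACTG (which overlaps motif 1) and ACACACG, had 11.3% and 9.86% on 2L and 3L but 4.44% and 2.96% on the other arms. TATAAA was less frequent in regions than in shared peaks, at 15.5% (interval 11.2 to 21.1) and 24.7%, and within 100 bp of a start at 12.7% and 15.8%. The E-box word CAGCTG occurred in 11.2% of regions, 3.17% of shared peaks and 9.34% of protein-coding starts. Within 100 bp of a start it was in 13.5% of regions (interval 8.60 to 20.5) and 8.10% of shared peaks (interval 6.65 to 9.85), with overlapping intervals. The GAGA word GAGAGAG occurred in 0.971% and 0.945%, and the Zelda word CAGGTAG in 0 of 206 (interval up to 1.83%) and 0.465%. A word in a window is a match of letters and not a measured binding site.

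**Figure D5:**
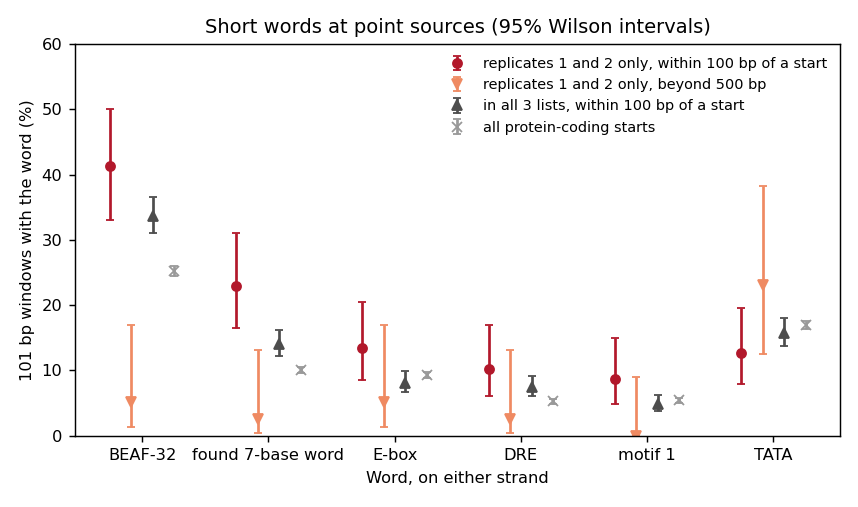
Percentage of windows of 50 bp to each side of the point source that hold a word on either strand (vertical axis), with 95% Wilson intervals, for the BEAF-32 word, the first word of the search over 7 bases, the E-box word, the DRE, the motif 1 word and the TATA word. The 126 regions within 100 bp of a start hold the BEAF-32 word in 41.3% of windows, the 39 regions beyond 500 bp in 5.13%, the peaks in all 3 lists within 100 bp in 33.7% and all protein-coding starts in 25.3%.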

How the data were processed

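Chromatin immunoprecipitation peaks of GFP-tagged Grauzone were taken from 3 replicate lists, a pooled list and a reproducible list. Per the file headers and labels, the coordinates are dm6. How reads were aligned, how peaks were called and what threshold defined the reproducible list is not given in the sources used here. For every peak the authors deposited a signal on an unstated scale, a −log10 q-value and the offset of the point source. Signals were used only to rank peaks within a list.

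Point sources were matched across lists by distance (100 bp for a match, 500 bp for absence). Transcription starts (23722, counted once per gene, place and strand, without pseudogenes and transposable elements) came from Ensembl release 115 and sequence from the RefSeq copy of dm6, and 0 peaks fell outside the reference. Words and GC content were counted in windows of 50 bp to each side of the point source. The regions, gene lists and words were chosen with earlier results of these data known.

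Named genes were cort, grau, those at the 15 highest promoter regions, the 5 highest regions elsewhere, up to 4 per gene list, regions within 10 kb of grau and those nearest each limit. Regions on chromosome 4 and 6 printed sequences were named after their values were seen, as were the regions in UTRs and coding exons. No test was run, and intervals are 95% Wilson. The functions were tested on simulated data. Python 3.11.15, numpy 2.4.6, pandas 2.3.3, scipy 1.17.1 and matplotlib 3.10.9 were used.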

Additional observations from a re-analysis of the deposited data

How the results depend on the processing

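The number of regions was 31.0 with ranks up to 5000, 605 up to 15000, 51.0 for replicates 1 and 3 without 2, and 350.0 to 7183 with 1 replicate left out (7183 being all matches of replicates 1 and 2). The promoter share was 74.2% and 69.4% at those ranks, 47.1% for replicates 1 and 3 without 2, 37.4% for replicates 2 and 3 without 1, 87.9% with starts within 1000 bp, and 46.1% to 80.0% with 1 replicate left out. Its excess over peaks in all 3 lists, 36.9 percentage points, was 28.7 and 28.5 at those ranks, 2.88 and −6.78 with the roles changed, 42.1 with starts within 250 bp, and 1.87 to 35.8 with 1 left out. Median GC was 34.7% and 41.6% at those ranks, 30.7% with the roles changed and 31.7% to 41.6% with 1 left out. Protein-coding genes with a region were 0.201% and 3.74% at those ranks, 1.20% with matches within 50 bp, 1.84% and 1.35% with 250 and 1000 bp to replicate 3, 0.222% and 0.653% with the roles changed, and 2.45% to 27.3% with 1 left out. tRNA genes were 8.28% up to rank 15000 and 1.38% to 9.66% with 1 left out. The excess was thus lost for replicates 1 and 3 without 2 and turned round for replicates 2 and 3 without 1, and without replicate 3 it has little meaning, since the 7183 peaks include the 6666 they are set against. The cause of the other changes was not tested. The unknown read depth limits what the lack of a replicate 3 peak shows. No paired analysis was possible because there was only 1 group.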
